A study of Homo sapiens and Mus musculus with 12 samples.

Results

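The loci of 10 surface marker genes of monocyte differentiation were examined, namely ITGAM, ITGAX, CD86, CD14, CD33, CSF1R, CD68, CD300LF, FCN1 and MRC1. The genes were listed by name, out of 20033 protein-coding genes of GENCODE release 44 and by no threshold on these data, but with earlier results of the data known. A gene was given the peaks that shared at least 1 bp with its body and 20 kb on either side in GRCh38. The 5 ChIP-seq peak lists held 12513 peaks, and 14 of these lay at the 10 genes.

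THP1 is a human acute monocytic leukemia line, and K562 is a human chronic myeloid leukemia line with erythroid and megakaryocytic potential. SPI1 and GFI1 were each immunoprecipitated from THP1 cells, for which the labels name no treatment. LSD1 and GFI1 were immunoprecipitated from K562 cells carrying a non-targeting sgRNA (sg-NT), and GFI1 also from K562 cells carrying an sgRNA against LSD1 (sg-LSD1). Both K562 lines expressed Cas9 from a lentivirus and the sgRNA from a vector with GFP, and the sg-LSD1 cells were 1 edited line. Each ChIP had 1 library, so no value below has a replicate check and no test between libraries was possible. The lists hold peaks and no RNA, so the labelled cell types could not be checked against expressed markers.

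SPI1 (PU.1) is the ETS family transcription factor that drives monocyte and macrophage fate, and it activates many genes of myeloid surface receptors. GFI1 is a zinc finger repressor that favours granulocytes over monocytes, and it acts by recruiting histone-modifying enzymes. LSD1 (KDM1A) is one of these, a histone demethylase that binds the SNAG domain of GFI1 within the CoREST complex. Loss or inhibition of LSD1 is known to raise surface markers such as ITGAM and CD86 in myeloid leukemia cells. Whether SPI1, GFI1 and LSD1 lie at the same marker loci is the question that the lists of both lines address here.

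In THP1 cells, 5 of the 10 genes had an SPI1 peak (ITGAM, ITGAX, CD14, CSF1R and CD300LF), where 9.57% of all protein-coding genes had one. Also 5 of the 10 had a GFI1 peak (CD14, CSF1R, CD300LF, FCN1 and MRC1), where 17.5% of all genes did. Both counts rest on the 20 kb flank. With 10 kb, 3 genes had an SPI1 peak beside 7.48% of all genes, and 2 had a GFI1 peak beside 13.9%. With 20 kb, the 3 genes CD14, CSF1R and CD300LF had both, which held for 3.39% of all genes. The GFI1 peaks of CD14 and CD300LF lay 19594 bp and 11529 bp beyond the gene ends. With 10 kb, only CSF1R therefore kept both, and the share of all genes with both was not counted there. In K562 sg-NT cells, 3 of the 10 had an LSD1 peak (ITGAM, ITGAX and CD33), beside 29.9% of all genes, so the share was at the background. The GFI1 lists of K562 cells held 0 peaks at the 10 genes, in sg-NT cells beside a background of 2.83% and in sg-LSD1 cells beside 0.928%. According to the study, technical limits of the GFI1 antibodies kept the number of GFI1 sites in K562 cells low. Only ITGAM and ITGAX had a peak in both lines, and CD68 and CD86 had none in any list. For ITGAM and ITGAX the LSD1 peak was the same 1, which lay between these genes. Shares of all genes with a peak in both lines, or with none in any list, were not counted, so these counts have no background. The genes' windows were not unusually wide, with a median of 63.3 kb beside 67.5 kb over all protein-coding genes.

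**Figure D1:**
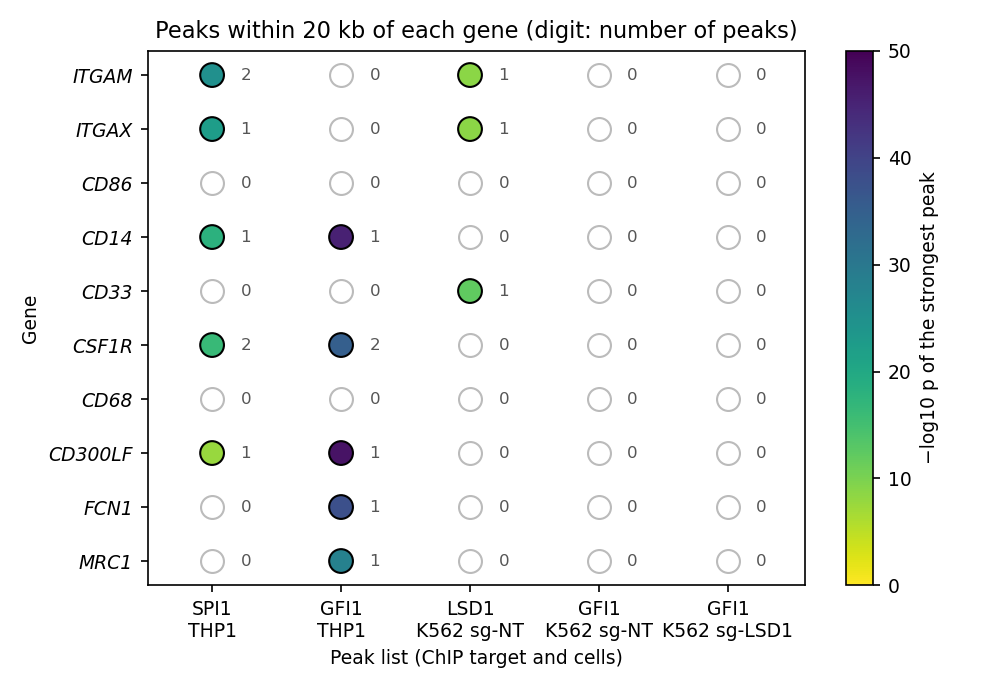
Peaks of the 5 lists (columns) at each of the 10 genes (rows). Filled circles mark genes with at least 1 peak and are coloured by the −log10 p of the strongest peak, open circles mark genes with none, and the digit gives the number of peaks. The filled circles in the LSD1 column are those of ITGAM, ITGAX and CD33. Both GFI1 columns of K562 cells are empty, where 2.83% (sg-NT) and 0.928% (sg-LSD1) of all protein-coding genes had a peak.

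The sequences at the summits that the results turn on are shown from GRCh38, on the plus strand, as 81 bases centred on each summit. Capitals mark the motif cores that were searched on both strands, GAGGAAGT for SPI1, AATCAC for GFI1, TGTGGT for RUNX and TGAGTCA for AP-1, while AGATAA for GATA was searched and lay in none of these windows. The windows in CSF1R and at CD14 are shown because SPI1 and GFI1 peaks overlap there, and those at the integrins, MRC1 and CD33 because they hold other peaks of the loci.
CSF1R intron 14, SPI1 summit, chr5:150058920-150059000: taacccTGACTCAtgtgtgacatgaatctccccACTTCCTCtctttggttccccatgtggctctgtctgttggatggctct
CSF1R intron 14, GFI1 summit, chr5:150058975-150059055: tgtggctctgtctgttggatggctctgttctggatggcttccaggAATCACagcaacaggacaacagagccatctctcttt
CSF1R intron 1, SPI1 summit, chr5:150081926-150082006: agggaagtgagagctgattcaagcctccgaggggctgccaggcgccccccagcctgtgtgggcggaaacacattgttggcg
CSF1R intron 1, GFI1 summit, chr5:150082538-150082618: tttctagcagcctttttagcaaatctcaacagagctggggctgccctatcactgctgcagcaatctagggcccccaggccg
CD14 flank, GFI1 summit, chr5:140612094-140612174: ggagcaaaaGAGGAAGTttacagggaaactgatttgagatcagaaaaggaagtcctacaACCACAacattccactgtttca
ITGAM upstream, SPI1 summit, chr16:31244088-31244168: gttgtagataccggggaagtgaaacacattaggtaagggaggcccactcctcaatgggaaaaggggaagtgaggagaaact
ITGAX upstream, SPI1 summit, chr16:31352565-31352645: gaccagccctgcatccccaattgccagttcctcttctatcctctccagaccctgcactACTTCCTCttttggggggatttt
ITGAX upstream, LSD1 summit, chr16:31350660-31350740: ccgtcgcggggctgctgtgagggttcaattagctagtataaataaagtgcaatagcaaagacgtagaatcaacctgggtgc
CD33 upstream, LSD1 summit, chr19:51224237-51224317: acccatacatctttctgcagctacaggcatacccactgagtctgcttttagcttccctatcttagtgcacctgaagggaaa
MRC1 intron 4, GFI1 summit, chr10:17838361-17838441: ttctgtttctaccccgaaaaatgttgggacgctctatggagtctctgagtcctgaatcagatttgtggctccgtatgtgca

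The values below are those of the deposited lists. The fold is the pileup of fragments over the local background at the summit, and the −log10 p is that of the peak caller against the same background, with a calling threshold of 1e-05 on p. The pair of values was solved for the fragments covering a summit, and their 95% Poisson interval covers counting error only. Because the antibodies and cells differed between libraries and read totals were not at hand, a peak was ranked within its own list, as the percent of the list's peaks with a smaller −log10 p. The list medians of −log10 p were 14.8 for SPI1 and 11.6 for GFI1 in THP1 cells, 11.3 for LSD1 and for GFI1 in K562 sg-NT cells and 10.6 for GFI1 in sg-LSD1 cells. The summits with the fewest fragments had 5 in the SPI1 list and 6 in the GFI1 list of THP1 cells, so sites of weaker enrichment are missing from the lists.

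ITGAM (CD11B) and ITGAX (CD11C) encode the alpha subunits of the complement receptor integrins that pair with ITGB2 on monocytes, granulocytes and dendritic cells. They lie side by side on the plus strand of chromosome 16, ITGAM from 31259967 to 31332892 and ITGAX from 31355134 to 31382999. The stronger SPI1 peak at these genes spanned 31243957 to 31244260, outside coding genes and 15847 bp upstream of the ITGAM start. It had 19 fragments (11.4 to 29.7), a fold enrichment of 13.6 and a −log10 p of 25.1, above 86.2% of the SPI1 list. The other SPI1 peak spanned 31352486 to 31352827 between both genes, 2571 bp upstream of the ITGAX start and 19713 bp beyond the ITGAM end, and so counts for both. It had 22 fragments (13.8 to 33.3), a fold enrichment of 11.2 and a −log10 p of 22.3, above 80.7% of the list.

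The LSD1 peak of K562 cells lay in the same stretch between the integrin genes, from 31350590 to 31350846, 4476 bp upstream of the ITGAX start. It was among the weaker LSD1 peaks, with 9 fragments (4.12 to 17.1), a fold enrichment of 6.11 and a −log10 p of 8.77, above 25.7% of the list. Its summit was 1905 bp from the SPI1 summit of THP1 cells and the peaks shared 0 bp. GFI1 was not called near either gene. The nearest GFI1 peak of THP1 cells lay 454 kb from the ITGAM start, with a −log10 p of 5.12, and the nearest of K562 sg-NT cells 710 kb away. From coverage tracks, the study describes SPI1, GFI1 and LSD1 together at ITGAM and CD86, with LSD1 from NB4 cells. Tracks and called peaks are unlike measures, and the tracks were not examined here.

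**Figure D2:**
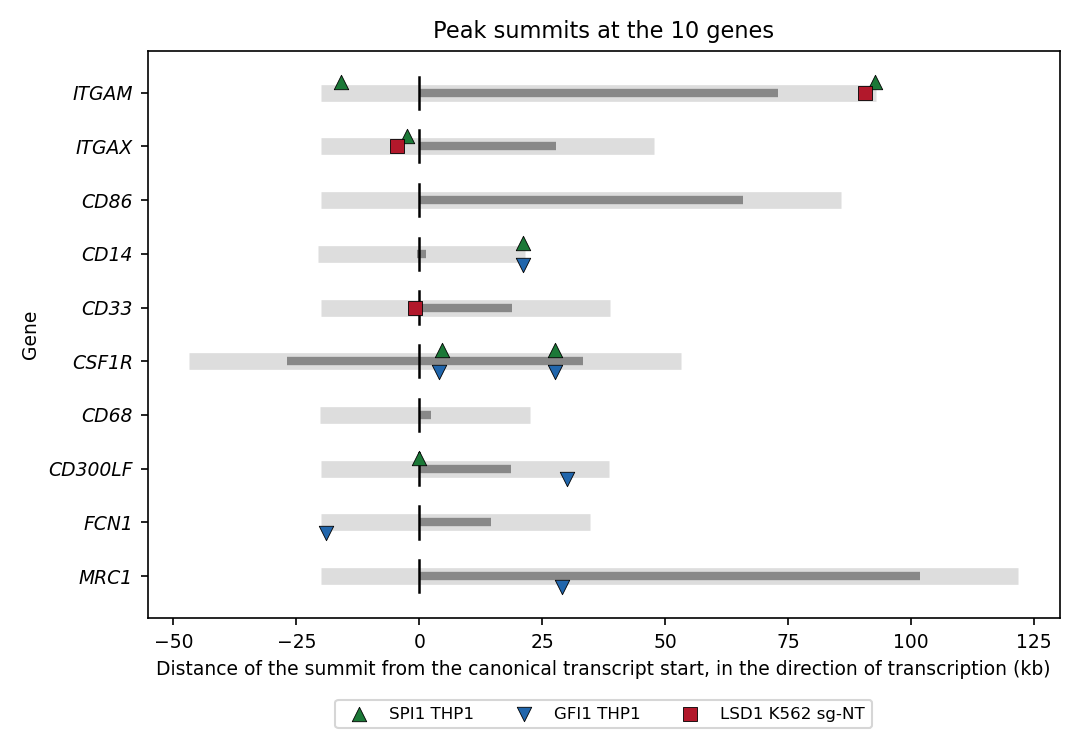
Summits of the peaks at the 10 genes by distance from the start of the canonical transcript, in kb along the direction of transcription. Dark bars are gene bodies, pale bars the 20 kb flanks and black ticks the starts. Upward triangles are SPI1 and downward triangles GFI1 peaks of THP1 cells, and squares are LSD1 peaks of K562 sg-NT cells. Paired triangles stand at CD14 and at 2 places in CSF1R, and the squares stand at ITGAM, ITGAX and CD33.

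CSF1R encodes the receptor for macrophage colony-stimulating factor (M-CSF) and for IL-34, on which monocytes and macrophages depend for survival. It lies on the minus strand of chromosome 5 from 150053291 to 150113372 and had 4 peaks of THP1 cells, the most of the 10 genes, all in introns of the canonical transcript. In intron 1, which follows the first coding exon and is known to hold the enhancer FIRE, a GFI1 peak spanned 150081974 to 150082789. It had 25 fragments (16.2 to 36.9), a fold enrichment of 17.5 and a −log10 p of 35.0, above 94.6% of the GFI1 list. An SPI1 peak overlapped its end that is distal to the CSF1R start, from 150081823 to 150082198, with 12 fragments (6.20 to 21.0), a fold enrichment of 9.26 and a −log10 p of 15.1. The summits were 612 bp apart, 4588 bp (SPI1) and 3976 bp (GFI1) downstream of the start, and the peaks shared 225 bp at their edges. Neither the SPI1 nor the GFI1 core lay within 100 bp of its summit there.

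In CSF1R intron 14, 27594 bp downstream of the start, an SPI1 peak spanned 150058678 to 150059078 with 13 fragments (6.92 to 22.2), a fold enrichment of 9.81 and a −log10 p of 16.3. A GFI1 peak spanned 150058838 to 150059144 with 16 fragments (9.15 to 26.0), a fold enrichment of 11.2 and a −log10 p of 19.7. The summits were 55 bp apart and the peaks shared 241 bp. This was the 1 place at the 10 genes where both factors had a peak with the factor's own core in 50 bp at its summit. The SPI1 core ran from 150058953 to 150058960, the last base of it at the SPI1 summit, and the GFI1 core from 150059020 to 150059025, beginning 5 bp from the GFI1 summit. An AP-1 core lay on the other side of the SPI1 core, from 150058926 to 150058932.

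No list of K562 cells had a peak at CSF1R. The nearest LSD1 peak lay 199 kb from the start, and the nearest GFI1 peak of sg-NT cells 14815 kb.

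**Figure D3:**
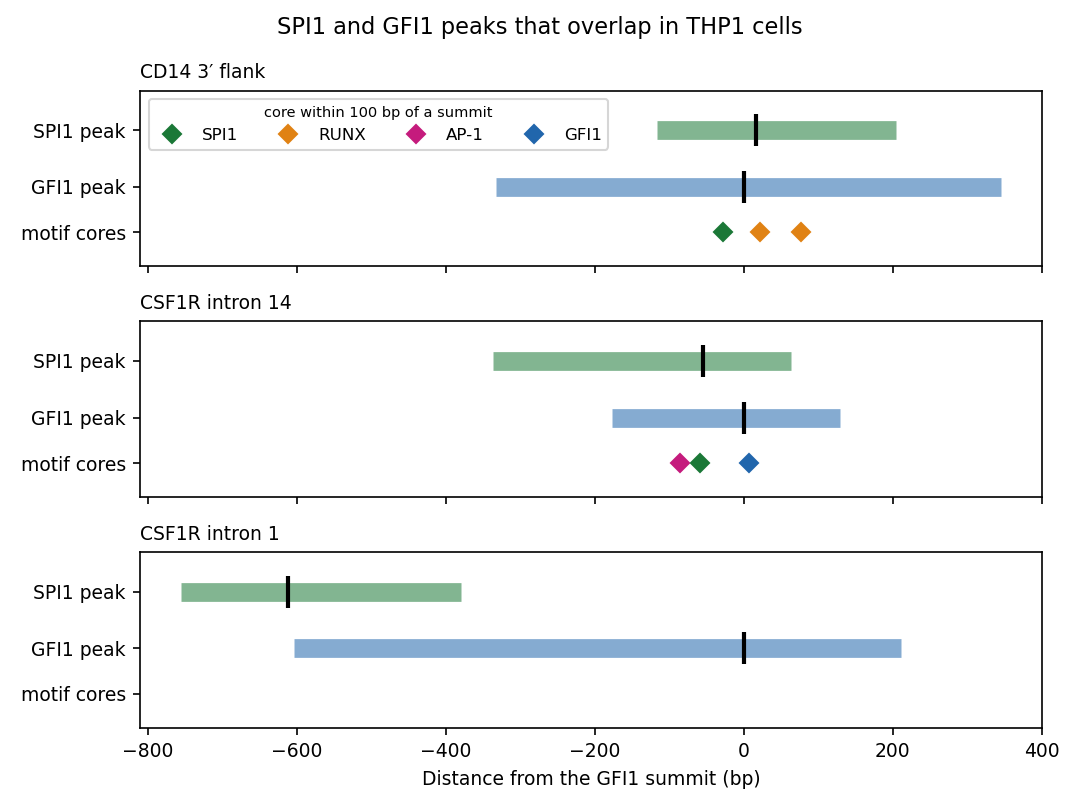
The 3 places where SPI1 and GFI1 peaks of THP1 cells overlapped at the genes, as distance from the GFI1 summit in bp along the plus strand. Green bars are SPI1 peaks, blue bars GFI1 peaks, black ticks their summits and diamonds motif cores within 100 bp of a summit. At CD14 the summits were 17 bp apart, in CSF1R intron 14 they were 55 bp apart and in CSF1R intron 1 they were 612 bp apart.

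CD14, FCN1 and MRC1 encode pattern recognition molecules of monocytes and macrophages. CD14 is the co-receptor that hands lipopolysaccharide to TLR4, FCN1 is a ficolin lectin that monocytes secrete and carry on their surface, and MRC1 (CD206) is the mannose receptor of macrophages. All 3 had a GFI1 peak in THP1 cells that was strong for its list, and CD14 also had an SPI1 peak.

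CD14 spans 140631728 to 140633700 on the minus strand of chromosome 5. Its GFI1 peak, from 140611802 to 140612480, had 31 fragments (21.1 to 44), a fold enrichment of 21.4 and a −log10 p of 45.4, above 96.8% of the GFI1 list. Its SPI1 peak, from 140612017 to 140612338, lay wholly within the GFI1 peak and had 14 fragments (7.65 to 23.5), a fold enrichment of 10.6 and a −log10 p of 18.0, above 66.2% of the SPI1 list. The summits were 17 bp apart, the closest pair at these genes. Both lay beyond the 3′ end of the gene, by 19577 bp (SPI1) and 19594 bp (GFI1), just inside the 20 kb limit, and no start of a coding gene was nearer than that of CD14. The window shown for the GFI1 summit holds an SPI1 core, 48 bp before the SPI1 summit, and a RUNX core that begins 2 bp beyond the SPI1 summit.

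FCN1 lies on the minus strand of chromosome 9 from 134903232 to 134917912. Its GFI1 peak, from 134936728 to 134937169, was 19042 bp upstream of the start and again near the 20 kb limit. It had 34 fragments (23.5 to 47.5), a fold enrichment of 15.9 and a −log10 p of 37.7, above 95.7% of the list. The nearest SPI1 peak lay 722 kb from the FCN1 start.

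MRC1 lies on the plus strand of chromosome 10 from 17809348 to 17911164. Its GFI1 peak, from 17838147 to 17838578, was in intron 4, 29053 bp downstream of the start. It had 21 fragments (13 to 32.1), a fold enrichment of 14.8 and a −log10 p of 28.2, above 91.3% of the list. None of the 6 kinds of core lay within 100 bp of its summit, and the nearest SPI1 peak was 609 kb from the MRC1 start.

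CD33 (SIGLEC3) and CD300LF are inhibitory receptors of myeloid cells, the former a sialic acid-binding lectin and the latter a member of the CD300 family. CD33 lies on the plus strand of chromosome 19 from 51225064 to 51243860 and had the strongest LSD1 peak of the 10 genes, from 51224112 to 51224531. Its summit was 803 bp upstream of the start, and it had 14 fragments (7.65 to 23.5), a fold enrichment of 7.29 and a −log10 p of 12.2, above 54.6% of the LSD1 list. Of the 62 words of 20 bases at this summit, 13 occurred once in GRCh38, with a median of 3.00 occurrences. The part of read mapping in this peak was not tested. THP1 cells had no peak at CD33. The nearest GFI1 peak lay 101 kb and the nearest SPI1 peak 434 kb from the start.

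CD300LF spans 74694311 to 74712978 on the minus strand of chromosome 17. The SPI1 peak, from 74712977 to 74713420, had its summit 88 bp upstream of the start and was the 1 THP1 peak within 1000 bp of a start at these genes. It was weak, with 10 fragments (4.80 to 18.4), a fold enrichment of 5.34 and a −log10 p of 7.75, above 6.77% of the SPI1 list. The GFI1 peak, from 74682617 to 74683025, was the strongest at the 10 genes, with 32 fragments (21.9 to 45.2), a fold enrichment of 22.2 and a −log10 p of 47.5, above 97.1% of the GFI1 list. It lay 11529 bp beyond the 3′ end of CD300LF, within the gene RAB37 and outside its canonical transcript, and 30.2 kb from the SPI1 summit. The start nearest to it was that of RAB37, a gene of vesicle transport.

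The sequence under the CD300LF GFI1 summit is repeated in the genome. None of its 62 words of 20 bases occurred once in GRCh38, the median word occurred 675 times and the most frequent 65962 times. Of the 3461 GFI1 peaks of THP1 cells, 5.89% had a median above 100 occurrences. At the other 5 GFI1 peaks of the genes the median word occurred once. Its part in the peak was not tested.

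CD68 and CD86 had 0 peaks in all 5 lists. CD68 is a lysosomal glycoprotein of macrophages, and CD86 is the costimulatory ligand of CD28 that antigen-presenting cells carry. The nearest SPI1 peak lay 263 kb from the CD68 start and 178 kb from the CD86 start. The nearest GFI1 peak of THP1 cells lay 339 kb and 626 kb away, and the nearest LSD1 peak 541 kb and 2637 kb away. Coverage below the calling threshold cannot be read from the lists.

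Within their lists, the GFI1 peaks at the genes stood high and the SPI1 peaks did not stand apart to the same degree. The 6 GFI1 peaks of THP1 cells had −log10 p values of 19.7 to 47.5 with a median of 36.4, and all lay above at least 80.4% of the list. The highest was the CD300LF flank peak in repeated sequence, and those of CD14 (45.4) and FCN1 (37.7) also lay outside the genes. The peaks inside the genes, in CSF1R and MRC1, had 19.7 to 35.0. The 6 SPI1 peaks ran from 7.75 to 25.1 with a median of 17.2, and lay above 6.77% to 86.2% of their list. The 2 LSD1 peaks, at 8.77 and 12.2, lay about the list median of 11.3. These ranks are descriptions of 1 library each.

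**Figure D4:**
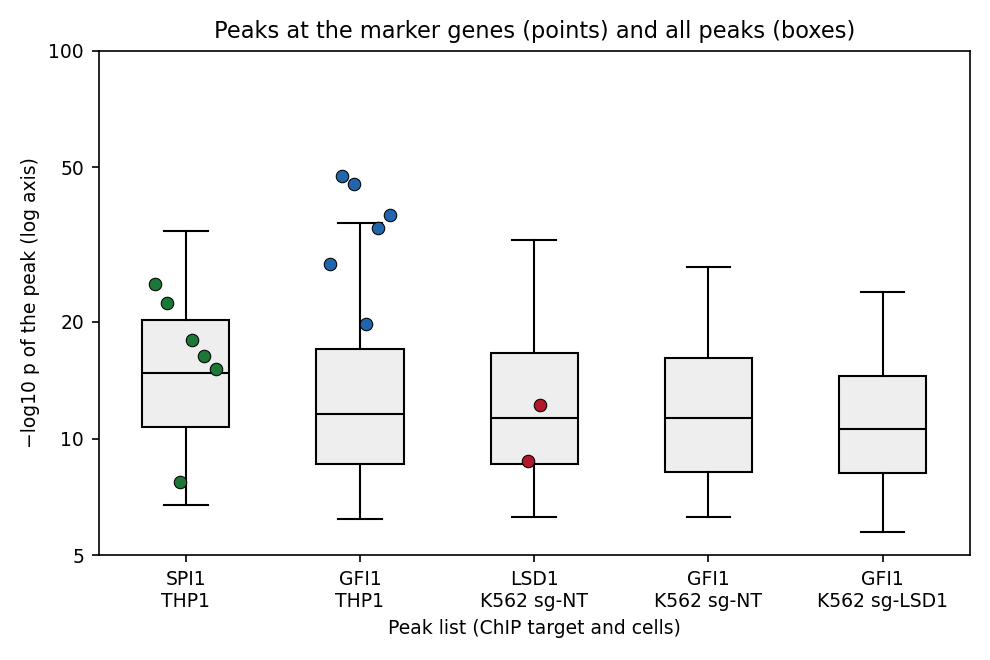
The −log10 p of the peaks at the 10 genes (points) beside all peaks of the same list (boxes from the lower to the upper quartile, with the median as a line and whiskers at the percentiles 5 and 95), on a log axis. The 6 GFI1 points of THP1 cells all lie above the box, from 19.7 to 47.5, the highest being the CD300LF flank peak in repeated sequence. The SPI1 points lie from 7.75 to 25.1, and the K562 GFI1 lists have no points.

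Of the 14 peaks, 13 lay nearer to the start of 1 of the 10 genes than to that of any other coding gene. Only 2 had a summit within 1000 bp of a coding start, the SPI1 peak of CD300LF and the LSD1 peak of CD33. Over whole lists the promoter share was 13.4% for SPI1 and 25.9% for GFI1 in THP1 cells, and 25.2% for LSD1.

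SPI1 and GFI1 peaks of THP1 cells overlapped at 3 places, namely at CD14 and in both introns of CSF1R. Of the 6 SPI1 peaks, 3 had an overlapping GFI1 peak, beside 10.5% of all SPI1 peaks. Counted from the other side, 3 of 6 GFI1 peaks overlapped an SPI1 peak, beside 5.58% of all GFI1 peaks. With so few peaks and 1 library per factor, no test of this difference was made.

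Between the lines, no peak at the genes was shared. Of the 2 LSD1 peaks, 0 overlapped a peak of THP1 cells (5.13% of all LSD1 peaks did) and 0 overlapped a GFI1 peak of K562 sg-NT cells (5.96% did). Likewise 0 of the 6 SPI1 peaks (2.76% of the list) and 0 of the 6 GFI1 peaks of THP1 cells (8.70% of the list) overlapped an LSD1 peak of K562 sg-NT cells. The closest approach was the pair of SPI1 and LSD1 summits upstream of ITGAX. LSD1 was not immunoprecipitated from THP1 cells nor SPI1 from K562 cells in the lists analysed, so the cell line and the factor cannot be told apart in these comparisons.

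Motif cores were counted at the summits, beside the share of each whole list. In a window of 50 bp that began 25 bp before the summit, the SPI1 core was found at 1 of 6 SPI1 peaks (26.4% of the list) and the GFI1 core at 1 of 6 GFI1 peaks (10.1% of the list), in both cases in CSF1R intron 14. The SPI1 core upstream of ITGAX began 18 bp after its summit and missed this window by 1 base. The RUNX core was found at 3 of 6 GFI1 peaks, among them that of CD14, beside 6.36% of the GFI1 list, and the count includes the peak in repeated sequence. The GATA core was found at 1 of 6 (2.37% of the list), the AP-1 core at 0 of 6 (1.76%) and the C/EBP cores TTGCGCAA and TTGCGTAA at 0 of 6 (0.260%). In 200 bp, the SPI1 core was found at 4 of 6 SPI1 peaks (38.9% of the list), adding CD14, CD300LF and the peak upstream of ITGAX, and the GFI1 core at 2 of 6 GFI1 peaks (27.8%), again with the peak in repeated sequence among them. With the short GFI1 core AATC in 50 bp, 5 of 6 GFI1 peaks had a match, beside 50.9% of the list. With the short SPI1 core GAGGAA, 3 of 6 SPI1 peaks had a match, beside 43.0% of the list. At the 2 LSD1 peaks none of the cores lay in 50 bp, and in 200 bp only CD33 had one, for GATA, as did 25.1% of the LSD1 list. A match describes letters and not a bound site.

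The same count was made for 52 other surface genes of monocytes and macrophages. Of these, 26.9% (14 genes) had an SPI1 peak and 30.8% (16 genes) a GFI1 peak in THP1 cells, and 28.8% (15 genes) an LSD1 peak and 1.92% (FCGR1A) a GFI1 peak in K562 sg-NT cells. In sg-LSD1 cells 0 had a GFI1 peak, beside 0.928% of all protein-coding genes. Over all protein-coding genes the other shares were 9.57% for SPI1 and 17.5% for GFI1 in THP1 cells. In K562 sg-NT cells they were 29.9% for LSD1 and 2.83% for GFI1, so the shares of the 52 genes there were not above the background. The strongest SPI1 peaks were at MARCO, a scavenger receptor (−log10 p 35.8), FCER1G, the signalling chain of Fc receptors (26.3), the adhesion receptor ADGRE5 (24.9), the sialic acid lectin SIGLEC1 (23.1) and TYROBP, the adaptor DAP12 (21.2). The strongest GFI1 peaks of THP1 cells were at the adhesion molecules PECAM1 (43.9) and ICAM1 (27.8), at TYROBP (20.1), and at the lipoprotein receptor TLR2 and CD300E, a relative of CD300LF (both 17.1). In K562 cells the strongest LSD1 peaks were at CSF3R, the receptor of G-CSF (43.0), at the Fc receptor genes FCGR2A and FCGR3A (1 peak, 34.0), at the peptidase ANPEP (25.1) and at ICAM1 (23.2). The FCGR genes have near-identical copies, so their peaks are uncertain. The GFI1 peak counted for ICAM1 lay 16112 bp from its start, in the coding part of ICAM4 exon 1. Its LSD1 peak lay 28282 bp from the ICAM1 start, and the nearest coding start was that of ICAM5. The SPI1 peak named for FCER1G lay 12476 bp from its start, in TOMM40L intron 5.

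For contrast, 20 surface genes of erythroid cells and megakaryocytes, the lineages that K562 cells are known for, were counted too. ICAM4 is 1 of these, and the SPI1, GFI1 and LSD1 peaks given to ICAM1 were also counted for it. LSD1 peaks of K562 sg-NT cells were found at 75% of them (15 genes), beside 3 of 10 at the monocyte markers and 29.9% of all genes. SPI1 peaks of THP1 cells were found at 15% (3 genes, beside 9.57% of all genes) and GFI1 peaks at 25% (5 genes, beside 17.5%). GFI1 peaks of K562 sg-NT cells were found at 15% (3 genes, beside 2.83%). With the 20 kb flank, the share in each list of THP1 cells was larger at the monocyte markers. In the LSD1 and GFI1 lists of K562 sg-NT cells it was larger at the erythroid genes, GFI1 being at 0 of 10 markers. With 10 kb, 2 of the 10 markers had a GFI1 peak of THP1 cells, and the erythroid genes were not recounted. These gene lists were chosen with earlier results of these data known, so the order is a description.

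**Figure D5:**
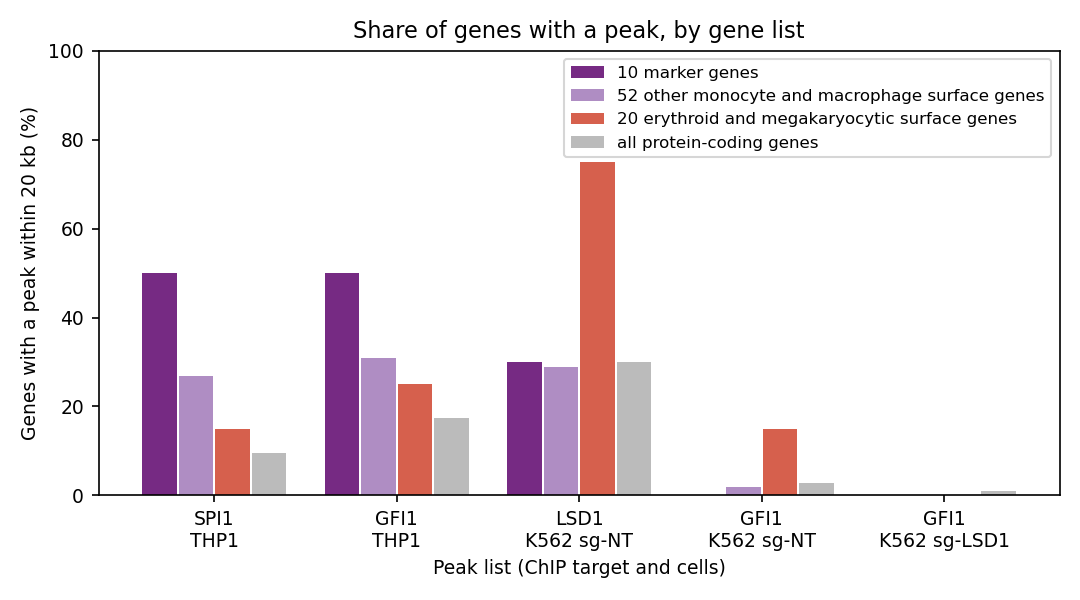
Percent of genes with at least 1 peak in the gene body or 20 kb on either side, for each peak list, as bars from 0. Purple bars are the 10 marker genes, light purple the 52 other monocyte and macrophage surface genes, red the 20 erythroid and megakaryocytic surface genes and grey all 20033 protein-coding genes. The marker genes reach 5 of 10 in both THP1 lists, and the erythroid genes reach 75% in the LSD1 list of K562 cells.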

How the data were processed

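Peak lists from ChIP-seq of THP1 cells (SPI1, GFI1), sg-NT K562 cells (LSD1, GFI1) and sg-LSD1 K562 cells (GFI1) were analysed, 1 library each. Lists for the inputs and for H3K4me1 of murine bone marrow cells were not used here. Per the study's methods and the labels, trimming was done by the authors with Trim Galore 0.6.1, mapping to GRCh38 with Bowtie2 2.5.4, removal of duplicates with Picard 3.1.0 and calling of peaks in single libraries with MACS2 2.2.9.1 (p threshold 1e-05), after which blacklisted regions were dropped. Use of the input as control is not given in the sources used here. The deposited fold is the ratio of pileup to local background, with a pseudocount of 1. The −log10 p and −log10 q are the caller's p-value and q-value as the authors deposited them. The deposited score was not used.

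Coordinates are 1-based. Fragment numbers were solved from fold and −log10 p to within 0.01 of the deposited −log10 p, with a whole number for 99.97% to 100.0% of each list. The lowest background over the summits of a list was 0.404 to 0.630 fragments, and the median summit had 11 to 13 fragments, so precision was low. Read totals were not at hand. Promoters were 1000 bp on either side of the start of a protein-coding gene. Words of 20 bases in 81 bases at each summit were counted over both strands of GRCh38. The solver, overlaps, motif search and word counts were tested on simulated data. The text names all 10 genes and, of the 52 other genes, up to 5 with the largest −log10 p per list. The sequences at 2 GFI1 summits of THP1 cells are not reported here. Members and gene lists were chosen with earlier results of these data known. Alternatives were other flanks, stricter thresholds, other definitions of overlap, and other motif windows and cores. Python 3.11.15, numpy 2.4.6, scipy 1.17.1 and matplotlib 3.10.9 were used.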

Additional observations from a re-analysis of the deposited data

How the results depend on the processing

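Of 74 alternatives, 11 moved a count by more than 1.5 times. Counts of 0 (both GFI1 lists of K562 cells and both overlaps of LSD1 peaks) could not fall, so their staying at 0 under smaller flanks and stricter limits says nothing of stability. Within the gene bodies alone, SPI1 had 3 peaks at 2 genes (4.89% of all genes had one), GFI1 of THP1 cells 3 peaks at 2 genes (9.18%) and LSD1 0 peaks at 0 genes (14.6%). With 10 kb, SPI1 peaks were at 3 genes (7.48%) and GFI1 of THP1 cells had 3 peaks at 2 genes (13.9%), so the GFI1 share came near the background. A flank of 50 kb, stricter limits (8 on −log10 p, 2 on −log10 q) and summits in place of intervals moved no count of genes or peaks past that limit. With 50 kb, however, the background rose with the window. SPI1 peaks were then at 5 of the 10 genes beside 15.5% of all genes, and GFI1 peaks of THP1 cells at 5 beside 26.2%. LSD1 peaks were at 4 beside 41.1%. At this flank the GFI1 lists of K562 cells still had 0 peaks at 0 genes, beside 4.77% of all genes in sg-NT cells and 1.48% in sg-LSD1 cells. The number of SPI1 and GFI1 peaks of THP1 cells with their own core, 2 of 12 in the window of 50 bp, was 6 in 200 bp and 8 with the shorter cores GAGGAA and AATC. The alternatives for the overlap of SPI1 with GFI1 were added after the data were seen and gave 2 or 3 of 6 peaks. With 1 library per ChIP no replicate could be left out. No paired analysis was possible because no result came from a test and the libraries analysed carry no replicate numbers.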

Other observations

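Among the 52 other monocyte and macrophage surface genes, FCGR1A, the high-affinity receptor for IgG, was the one with a GFI1 peak in both lines. In its intron 3 on chromosome 1, GFI1 of THP1 cells had a peak from 149788017 to 149788402 with a fold of 7.73, GFI1 of K562 sg-NT cells one from 149787890 to 149788208 with a fold of 7.93, and LSD1 one from 149787802 to 149788240 with a fold of 8.98. FCGR1A has near-identical copies, so the mapping there is uncertain, and GFI1 of sg-LSD1 cells had no peak in this window.

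At ADGRE5 the SPI1 peak of THP1 cells (14383827 to 14384292 on chromosome 19, fold 13.5) and an LSD1 peak of K562 sg-NT cells (14383769 to 14384152, fold 11.3) overlapped in intron 1. At MARCO the SPI1 peak (118940335 to 118940771 on chromosome 2, fold 17.7) and the GFI1 peak of THP1 cells (118940353 to 118940796, fold 6.74) overlapped upstream of the start. SPI1 and GFI1 peaks of THP1 cells also overlapped at TYROBP and at the place counted for ICAM1. Over the whole SPI1 list, 10.5% of peaks overlapped a GFI1 peak of THP1 cells and 2.76% an LSD1 peak of K562 sg-NT cells. All these values come from single libraries.

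Among the erythroid and megakaryocytic surface genes, the blood group genes RHD, RHCE and RHAG had peaks of both LSD1 and GFI1 in K562 sg-NT cells. The GFI1 peaks had −log10 p values of 17.5 at RHD, 5.44 at RHCE and 9.58 at RHAG. RHD and RHCE are near-identical paralogs, which makes the mapping there uncertain.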
